A study of Mus musculus with 6 samples.

Results

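Mitochondrial ribosomal protein genes were followed through adipocyte differentiation of 3T3-L1 cells. They were taken as every row of the deposited count table whose name starts with Mrpl or Mrps and a number, without names ending in -ps, which left 81 of 43760 rows. Of these, 77 are protein-coding genes and 4 are numbered pseudogenes (Mrpl23-ps1, Mrps36-ps1, Mrps36-ps2 and Mrps36-ps3). The pseudogenes had at most 0.757 CPM in a library (CPM, read counts scaled to a common library size after TMM correction, which centres the typical gene) and were not tested. All 77 coding genes passed the filter on low counts, 50 of them for proteins of the large subunit, 26 for proteins of the small subunit, and Mrps36. 3T3-L1 is a mouse fibroblast line derived from a single clone that stores fat after hormonal induction. The compared groups were wild-type cells at day 7, differentiated with IBMX, insulin, dexamethasone and rosiglitazone (3 libraries), and wild-type cells of the same line at day 0, harvested without differentiation (3 libraries). Nothing in the labels tells separate cultures from repeat libraries of one culture, and p-values therefore measure only the spread between these libraries, which may be technical.

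The mitochondrial ribosome makes a handful of proteins, all of them membrane subunits of the respiratory chain or the ATP synthase. Its ribosomal RNAs are encoded in mitochondrial DNA, while every one of its proteins is encoded in the nucleus, made on cytosolic ribosomes and imported. Some of its proteins descend from bacterial ribosomal proteins, and others were added in the mitochondrial lineage. In fat cells, mitochondria supply acetyl groups and ATP for lipid synthesis, and mitochondrial content is known to grow during adipocyte differentiation.

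The libraries held 7655822 to 16987076 counts, and Mrp genes took 10431 to 32949 of them. All 7 adipocyte markers rose, with a summed level of 11663 to 13661 CPM at day 7 and 524 to 556 CPM at day 0. All 6 preadipocyte markers fell, with a summed level of 1733 to 2805 CPM at day 7 and 6735 to 7657 CPM at day 0. The 4 macrophage markers summed to 0.949 to 1.92 CPM at day 7 and 0.869 to 1.93 CPM at day 0, with Ptprc at 0 in every day 7 library. The 4 endothelial markers summed to at most 1.42 CPM in any library, with Kdr at 0 in every day 7 library, and of the skeletal muscle markers Myod1 and Myog were at 0 in all libraries. The headers of the 3 day 7 columns carry the same replicate number, so the day 7 libraries are named here by the order of their columns. In bulk RNA, a change in the number of cells of a type and a change in RNA per cell cannot be told apart.

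Most Mrp genes rose with differentiation. By edgeR's quasi-likelihood test, adjusted by Benjamini-Hochberg over all 12354 tested genes at a threshold of 0.05, 67 of 77 Mrp genes rose at day 7, against 30.8% of all tested genes. Another 2, Mrps6 and Mrpl52, fell, against 29.2% of all tested genes, and 8 did not pass. The median log2 fold change was 0.80 over the members (interquartile range 0.57 to 1.16) and 0.02 over all tested genes. The 67 genes that rose did so by 1.29-fold to 4.47-fold, and 29 of them reached at least 2-fold. Over all tested genes, 1979 of the 3802 that rose reached at least 2-fold. In 66 members every day 7 library was above every day 0 library, which held for 34.2% of all tested genes, and in 2 members every day 7 library was below, which held for 34% of all tested genes. Summed over members, Mrp genes had 1865, 1763 and 1415 CPM in the day 7 columns, against 944, 920 and 977 CPM in the day 0 replicates, a ratio of means of 1.77. Scaling by total counts alone lowered the median of all tested genes to -0.21 and that of the members to 0.56. Under that scaling 38 members rose, against 2356 of all 12354 tested genes. All 67 genes called in the comparison above stayed positive under it.

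**Figure D1:**
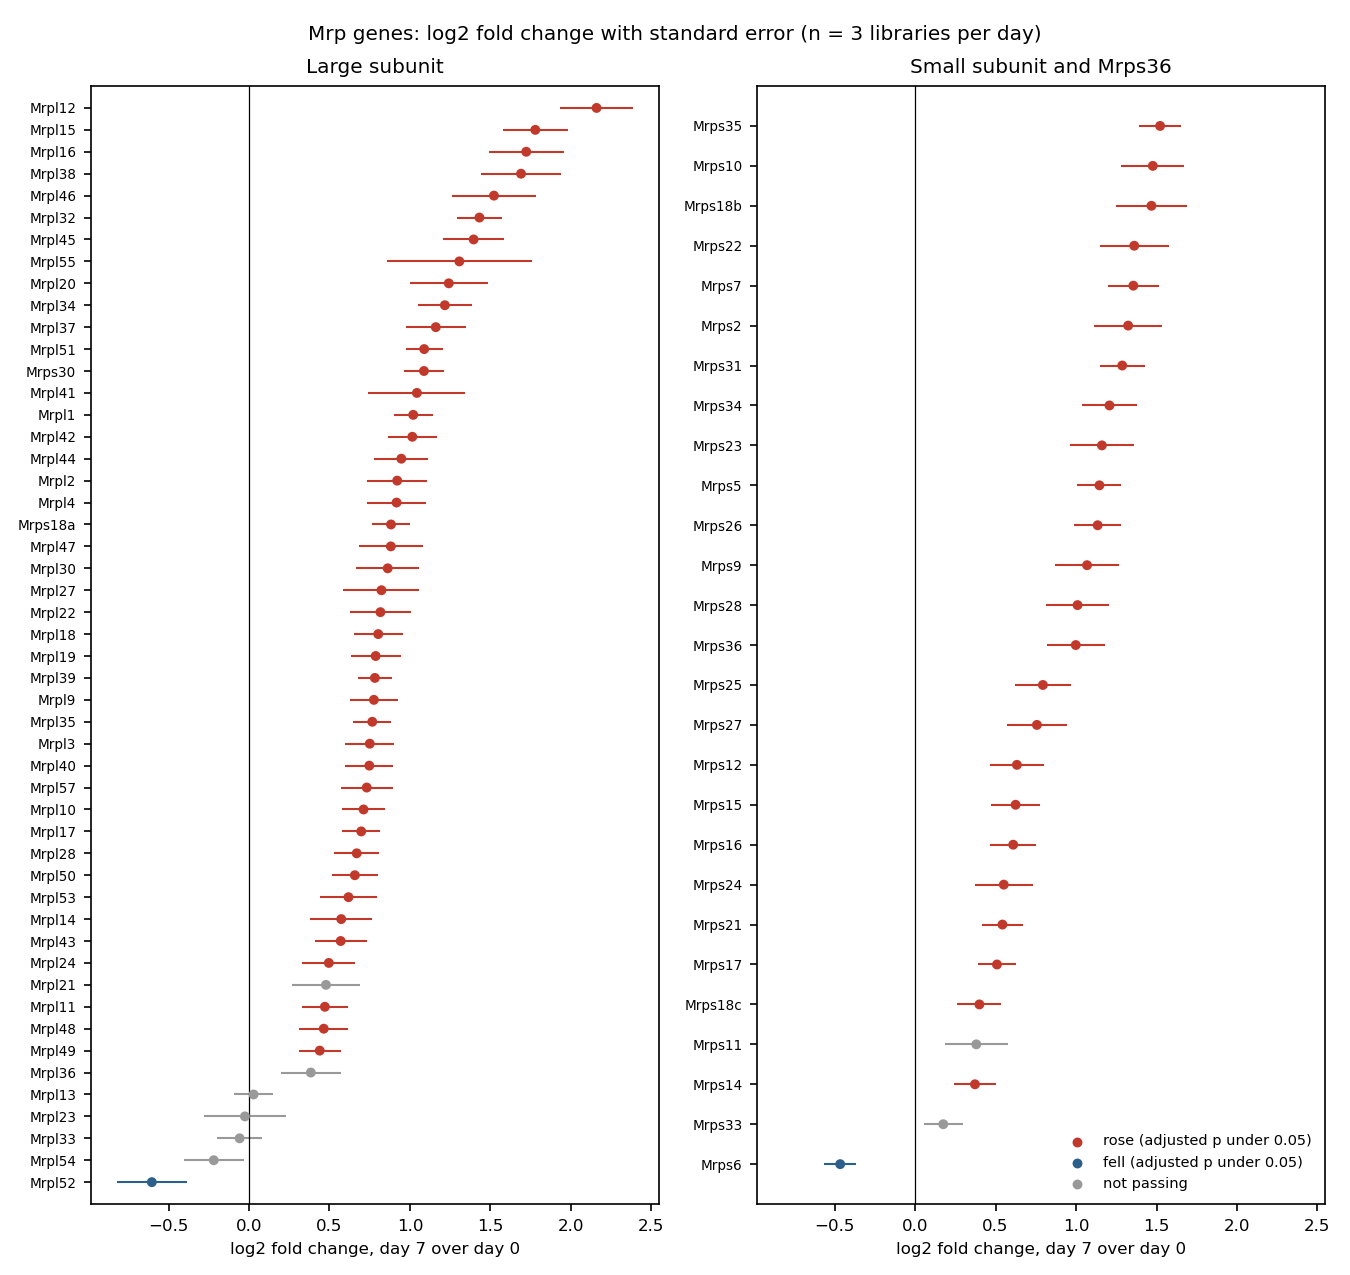
Log2 fold change of the 77 Mrp genes, day 7 over day 0, with standard error (n = 3 libraries per day), split into large-subunit genes (left) and small-subunit genes with Mrps36 (right). Red points rose and blue points fell at an adjusted p under 0.05, and grey points did not pass; nearly all points lie right of 0, from Mrpl12 at 2.16 to Mrpl52 at -0.60.

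The regions around the transcription start are printed for 5 members on which the results turn: the gene that rose most, the pair of members that share a start region, and the members that fell. They come from RefSeq (build GRCm38.p6) and run from 250 bases before the start to 50 bases after it, 5′ to 3′ on the gene's own strand. Capitals mark matches, on either strand, to the motifs of NRF1 (GCGCANGCG), the ETS factor GABPA (CCGGAAG), YY1 (AAGATGGC) and ERR (AAGGTCA), factors known to act on nuclear genes of mitochondrial proteins. The Mrpl12 window (chr11:120484387-120484686, plus strand) held an NRF1 match 80 bases before the start and an ERR match 33 bases after it. The windows of Mrpl46 (chr7:78783040-78783339, minus strand) and Mrps6 (chr16:92058086-92058385, plus strand) held no match. That of Mrps11 (chr7:78782881-78783180, plus strand) held a YY1 match 107 bases before the start. This match lies just past the end of the Mrpl46 window, and nearer to the start of Mrpl46 than to that of Mrps11. The window of Mrpl52 (chr14:54426659-54426958, plus strand) held ETS matches 47 bases before and 2 bases after the start. With longer motifs as alternatives, the NRF1 and ERR matches of Mrpl12 were lost, while Mrps11 kept its YY1 match and Mrpl52 an ETS match.
Mrpl12: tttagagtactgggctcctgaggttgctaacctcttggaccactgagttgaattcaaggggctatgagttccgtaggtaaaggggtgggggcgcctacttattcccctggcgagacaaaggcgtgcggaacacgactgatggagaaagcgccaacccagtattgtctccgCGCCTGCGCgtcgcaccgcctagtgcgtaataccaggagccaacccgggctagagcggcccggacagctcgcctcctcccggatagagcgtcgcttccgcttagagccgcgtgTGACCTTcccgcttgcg
Mrpl46: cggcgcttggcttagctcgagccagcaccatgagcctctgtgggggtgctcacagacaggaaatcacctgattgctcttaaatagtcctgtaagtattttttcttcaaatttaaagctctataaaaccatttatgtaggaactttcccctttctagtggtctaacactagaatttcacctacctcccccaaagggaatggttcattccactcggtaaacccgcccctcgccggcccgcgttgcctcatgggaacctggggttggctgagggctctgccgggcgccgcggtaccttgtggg
Mrps11: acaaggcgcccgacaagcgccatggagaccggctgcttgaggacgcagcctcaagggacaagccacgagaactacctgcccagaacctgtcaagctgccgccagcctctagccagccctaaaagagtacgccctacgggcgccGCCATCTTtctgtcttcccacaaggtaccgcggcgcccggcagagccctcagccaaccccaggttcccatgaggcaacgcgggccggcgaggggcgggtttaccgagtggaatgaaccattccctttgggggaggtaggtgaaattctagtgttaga
Mrps6: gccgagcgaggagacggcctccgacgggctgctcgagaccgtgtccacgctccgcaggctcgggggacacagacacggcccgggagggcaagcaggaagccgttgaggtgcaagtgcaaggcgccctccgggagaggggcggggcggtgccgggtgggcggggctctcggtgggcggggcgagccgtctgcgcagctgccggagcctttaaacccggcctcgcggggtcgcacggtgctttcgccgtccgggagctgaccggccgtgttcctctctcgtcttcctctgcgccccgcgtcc
Mrpl52: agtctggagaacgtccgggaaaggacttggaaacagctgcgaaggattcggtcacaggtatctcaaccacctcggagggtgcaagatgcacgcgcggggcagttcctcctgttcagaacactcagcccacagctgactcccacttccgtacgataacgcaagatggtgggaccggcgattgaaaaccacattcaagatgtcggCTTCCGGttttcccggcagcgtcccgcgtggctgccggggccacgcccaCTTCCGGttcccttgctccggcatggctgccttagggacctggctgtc

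In the large subunit, 43 of 50 genes rose and 1 fell (median log2 fold change 0.80). The stalk proteins recruit elongation factors to the ribosome, and 4 of the 5 genes for them rose. Among these, Mrpl12, whose protein forms the mobile part of the stalk and also binds the mitochondrial RNA polymerase, had 88.8, 70.3 and 49.0 CPM in the day 7 columns, against 16.7, 13.0 and 17.2 CPM in the day 0 replicates. Its lowest day 7 library lay well above its highest day 0 library. Its log2 fold change of 2.16 (SE 0.23, edgeR adjusted p = 0.000135) was the largest of all members. The gene spans chr11:120484613-120489065 on the plus strand (GENCODE M21, GRCm38). Mrpl10, whose protein anchors the stalk, rose less, by 0.71 on the log2 scale (SE 0.13), with 35.1 ± 5.5 CPM at day 7 and 21.5 ± 0.519 CPM at day 0 (SD, n = 3 each). Mrpl11, at the base of the stalk, rose by 0.47 (SE 0.14) and Mrpl53 by 0.62 (SE 0.18). The Mrpl53 counts were fractional in all 6 libraries. Under total-count scaling only Mrpl12 of these 4 genes kept its call (edgeR adjusted p = 5.74e-05). The adjusted p was then 0.076 for Mrpl10, 0.37 for Mrpl11 and 0.18 for Mrpl53. Of the 6 fits that left out 1 library, Mrpl11 lost its call in 4 and Mrpl53 in 2. Mrpl54 was the member of the stalk list that did not pass: it had 10.8, 11.7 and 11.8 CPM at day 7, against 13.3, 10.3 and 16.3 CPM at day 0, and the groups overlapped (log2 fold change -0.22, SE 0.19, adjusted p = 0.34).

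The central protuberance contacts the head of the small subunit, and the 5 members listed for it rose. The list was limited to Mrp names and may not hold every protein of this part. Mrpl52, which fell, and Ict1 (also called Mrpl58), which did not pass, are not on it. Mrpl38 had 50.3, 37.9 and 24.8 CPM at day 7 and 10.3, 12 and 12.9 CPM at day 0 (log2 fold change 1.69, SE 0.25, adjusted p = 0.000706). Mrpl46 had 12.5, 13.3 and 7.05 CPM at day 7 and 4.55, 3.54 and 3.50 CPM at day 0 (1.52, SE 0.26, adjusted p = 0.0016). In both genes the third day 7 column was the lowest of day 7 and still above every day 0 library. Mrpl18 rose by 0.80 (SE 0.15) and Mrpl48 by 0.46 (SE 0.15), the smallest rise of this list. The Mrpl48 counts were fractional in all 6 libraries, as happens where reads are shared with other features. Of the 6 fits that left out 1 library, it passed only in the one without the first day 7 column.

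Around the exit of the peptide tunnel, where new chains reach the inner membrane, 6 of 7 genes rose. Mrpl45, which contacts the membrane at the tunnel exit, had 29.4 ± 7.21 CPM at day 7 and 11.2 ± 0.580 CPM at day 0 (SD, n = 3 each; log2 fold change 1.40, SE 0.19). Mrpl44, a protein with a ribonuclease-like fold, rose by 0.95 (SE 0.17), Mrpl22 by 0.82 (SE 0.19) and Mrpl17 by 0.70 (SE 0.12). In each of these 4 genes the day 7 libraries lay above the day 0 libraries. Mrpl23 did not pass and overlapped between days, with 7.09 ± 2.49 CPM at day 7 and 7.28 ± 0.901 CPM at day 0 (adjusted p = 0.94). Its counts were fractional in all 6 libraries.

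Elsewhere in the large subunit, Mrpl15 and Mrpl16, both with bacterial counterparts, ranked next to Mrpl12. Mrpl15 had 55.9, 58.4 and 34.9 CPM at day 7 and 13.2, 15.6 and 14.7 CPM at day 0 (log2 fold change 1.78, SE 0.20). Mrpl16 had 19.4, 15.1 and 14.9 CPM at day 7 and 3.85, 4.47 and 6.75 CPM at day 0 (1.72, SE 0.23). For both, the day 7 libraries lay more than 2-fold above the day 0 libraries. Mrpl41, a protein added in the mitochondrial lineage, rose by 1.04 (SE 0.30). The genes of this subunit that did not pass were Mrpl13, Mrpl21, Mrpl23, Mrpl33, Mrpl36 and Mrpl54. Mrpl13 had 25.2 ± 3.11 CPM at day 7 and 24.8 ± 0.878 CPM at day 0 and Mrpl33 had 18.3 ± 2.73 CPM at day 7 and 19.1 ± 1.11 CPM at day 0 (SD, n = 3 each), so their means differed by less than the day 7 spread. Mrpl21 (0.48, SE 0.21, adjusted p = 0.085) passed without the third day 7 column (adjusted p = 0.011).

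**Figure D2:**
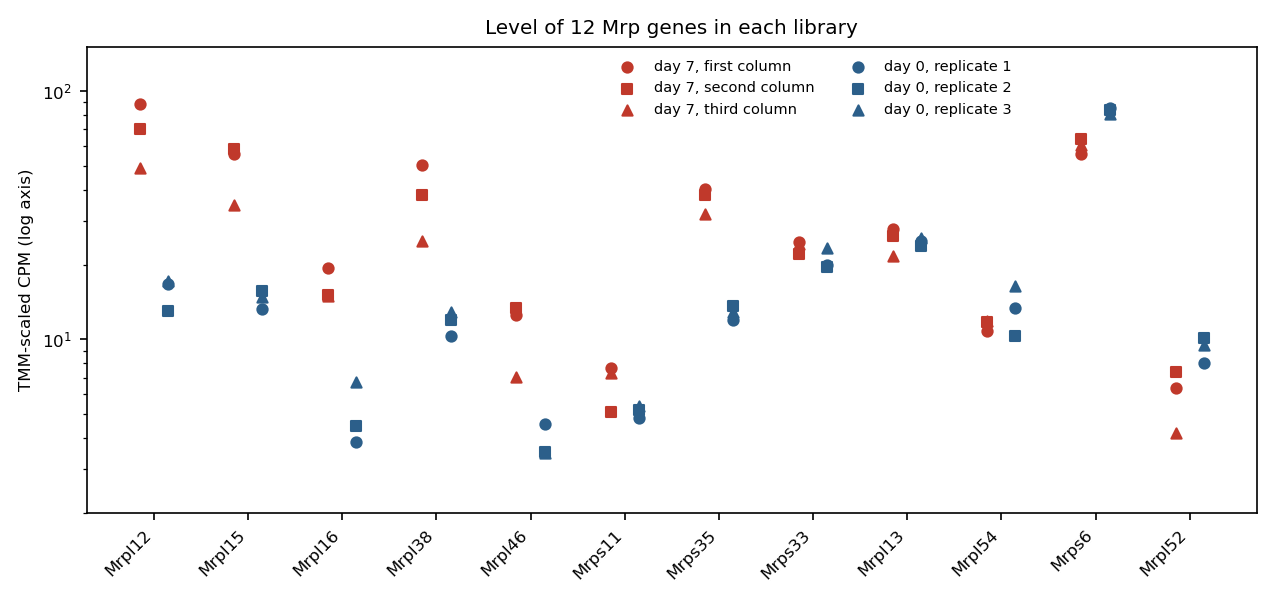
TMM-scaled CPM (log axis) of 12 Mrp genes in each of the 3 day 7 libraries (red, left) and the 3 day 0 libraries (blue, right). The red points stand clear above the blue ones for Mrpl12, Mrpl15, Mrpl16, Mrpl38, Mrpl46 and Mrps35, mix with them for Mrps11, Mrps33, Mrpl13 and Mrpl54, and lie below them for Mrps6 and Mrpl52.

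In the small subunit, 23 of 26 genes rose and 1 fell (median log2 fold change 0.90). Mrps35, a protein with no bacterial counterpart, had 40.4, 38.0 and 32.0 CPM at day 7, against 11.9, 13.7 and 12.9 CPM at day 0. The groups stood far apart, and its log2 fold change of 1.52 (SE 0.13) had the smallest adjusted p of all members that rose (4.73e-05). Mrps7, which binds the small ribosomal RNA early in assembly, rose by 1.36 (SE 0.16) and Mrps2 by 1.32 (SE 0.21). Mrps34, of which mutations in people cause a deficit of the small subunit, rose by 1.21 (SE 0.17), and its counts were fractional in 4 libraries. Mrps28 rose by 1.01 (SE 0.20) and Mrps12, a protein of the decoding site, by 0.63 (SE 0.17). Mrps11 and Mrps33 did not pass.

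Within the small subunit, 9 of the 10 genes listed as specific to mitochondria rose with a median of 1.18, and 14 of the 16 genes listed with a bacterial counterpart rose with a median of 0.62. In the large subunit the medians were 0.83 over 20 genes listed as specific to mitochondria and 0.80 over 30 genes listed with a counterpart. Mrps18a and Mrps18b, which resemble bacterial S18 but sit elsewhere in the ribosome, are in the mitochondria-specific lists. These differences between lists were not tested. The 3 paralogs of bacterial S18 occupy different places, Mrps18a in the large subunit and the other two in the small one. Mrps18b rose by 1.47 (SE 0.22), with 44.0, 37.9 and 23.5 CPM at day 7 and 12.8, 12.2 and 13.3 CPM at day 0. Mrps18a rose by 0.88 (SE 0.12) and Mrps18c by 0.40 (SE 0.14). The Mrps18c counts were fractional in 4 libraries. Mrps30, a large-subunit protein in spite of its name, rose by 1.09 (SE 0.13). Mrps36, which carries the name of a ribosomal protein but is now known as a subunit of the 2-oxoglutarate dehydrogenase complex, had 24.3, 20.6 and 15.3 CPM at day 7 and 9.81, 10.2 and 10.3 CPM at day 0 (log2 fold change 0.998, SE 0.18).

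Of the members that fell, Mrps6 is a small-subunit protein with a bacterial counterpart. It had 55.8, 64.2 and 60.6 CPM at day 7, against 84.9, 83.4 and 81.0 CPM at day 0. All day 7 libraries lay below all day 0 libraries, and the log2 fold change was -0.47 (SE 0.10, adjusted p = 0.0042). It passed in each of the 6 fits that left out 1 library, with an adjusted p of at most 0.023. The gene (chr16:92058270-92112227, plus strand, GRCm38) shares exons on its strand with Slc5a3, an inositol transporter gene, and both had fractional counts in all 6 libraries. Slc5a3 averaged 317 ± 29.8 CPM at day 7 and 377 ± 47.2 CPM at day 0 (SD, n = 3 each; log2 fold change -0.25, SE 0.15, adjusted p = 0.18). How far its reads enter the Mrps6 value was not tested. Mrpl52, a large-subunit protein added in the mitochondrial lineage, had 6.40, 7.42 and 4.2 CPM at day 7, against 8.06, 10.1 and 9.50 CPM at day 0 (log2 fold change -0.60, SE 0.22, adjusted p = 0.043). Its groups did not overlap either, but of the 6 fits that left out 1 library it passed only in the one without the second day 7 column, with adjusted p from 0.026 to 0.14.

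Per kilobase of annotated exon, the level of Mrp genes spanned 0.886 to 45.3 CPM per kb at day 7 (median 7.95) and 0.639 to 54.2 CPM per kb at day 0 (median 4.51). The highest mean levels per length were those of Mrps6 (39.3 ± 2.78 at day 7 and 54.2 ± 1.30 at day 0), Mrpl12 (45.3 ± 13.0 and 10.2 ± 1.5) and Mrpl34 (37.7 ± 6.63 and 16.3 ± 1.84 CPM per kb, SD, n = 3 each). At day 7 these 3 levels differed by less than the spread of Mrpl12, while at day 0 Mrps6 stood above the others. The lowest were Mrpl47 (2.24 ± 0.503 at day 7 and 1.22 ± 0.106 at day 0), Mrpl23 (1.45 ± 0.509 and 1.49 ± 0.184) and Mrpl48 (0.886 ± 0.0846 and 0.639 ± 0.0139 CPM per kb). With the length of the longest transcript in place of all exons, Mrps21 and Mrpl55 took the places of Mrpl34 and Mrpl47.

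The members differed in how closely their libraries agreed. Mrpl35, a large-subunit protein, had 19.1, 19.8 and 19.5 CPM at day 7 and 10.7, 11.4 and 12.2 CPM at day 0 (log2 fold change 0.77, SE 0.12), with the smallest spread of the members at day 7 (coefficient of variation 1.77%). Mrpl1, which sits at the exit side for used transfer RNAs, had 23.9, 23.0 and 24.1 CPM at day 7 and 11.4, 10.8 and 12.8 CPM at day 0 (1.02, SE 0.12). At the other end, Mrpl55 had 3.79, 3.76 and 1.08 CPM at day 7 and 1.49, 0.993 and 1.17 CPM at day 0, with a day 7 coefficient of variation of 54.0%. It rose by 1.31 (SE 0.45, adjusted p = 0.037) although the third day 7 column lay below 2 day 0 libraries. Of the 6 fits that left out 1 library, it passed only in the one without the third day 7 column. Mrpl41 was the other gene that rose with overlapping groups, with 10.8, 10.2 and 5.15 CPM at day 7 and 5.43, 3.54 and 4.0 CPM at day 0. Calls were lost in at least 1 of the fits without 1 library for 14 of the 67 genes that rose, among them Mrpl11, Mrpl41, Mrpl53, Mrps12 and Mrps18c. Total-count scaling ended the calls of 29 of the 67 genes, all with positive values, among them Mrpl10, Mrpl11, Mrpl17, Mrpl18, Mrpl22, Mrpl47, Mrpl48, Mrpl49, Mrpl53, Mrpl55, Mrpl57, Mrps12, Mrps17, Mrps18c and Mrps21.

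The third day 7 column stood apart within its group. It was the lowest of the day 7 columns for 57 of the 67 genes that rose and the highest for 3 (Mrpl1, Mrpl49 and Mrps17), and the median log2 difference of the members from the day 0 mean was 0.94 in the first column, 0.87 in the second and 0.59 in the third. The same order was seen for nuclear respiratory subunits (1.65, 1.53 and 1.12), and the preadipocyte markers were least reduced in the third column (-3.55, -2.81 and -1.91). Adipocyte markers did not follow it (6.5, 6.21 and 6.41). Cytosolic ribosomal proteins were most reduced in the third column (-0.73, -0.75 and -1.19). Respiratory subunits encoded in mitochondrial DNA were highest there (1.45, 1.52 and 1.96). The part of these differences in the member values was not tested. Without the third column 67 members rose, 66 of them the same genes, and 1 fell, with a median of 0.92. Over all genes, 4185 of 12712 rose and 4044 fell in that fit. The median coefficient of variation of the members was 16.6% over the day 7 libraries and 7.72% over the day 0 libraries.

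Of 6 genes for proteins of the mitochondrial ribosome that carry other names, 3 rose. Ptcd3, a small-subunit protein with RNA-binding repeats, had 59.8, 66.2 and 62.5 CPM at day 7 and 25.1, 25.4 and 24 CPM at day 0 (log2 fold change 1.34, SE 0.09), and its groups stood far apart. Dap3 rose by 0.69 (SE 0.12) and Aurkaip1 by 0.68 (SE 0.14), calls that total-count scaling ended (0.46 with adjusted p = 0.087 and 0.45 with adjusted p = 0.11). Ict1, the ribosome-rescue hydrolase that is also called Mrpl58, did not pass, with 7.05 ± 3.35 CPM at day 7 and 5.74 ± 1.10 CPM at day 0 (SD, n = 3 each; adjusted p = 0.41). Chchd1 and Gadd45gip1 did not pass either, with log2 fold changes of 0.31 (SE 0.23) and -0.02 (SE 0.19). Without the third day 7 column 5 of the 6 rose.

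Among 28 tested genes for assembly of the mitochondrial ribosome, 20 rose and 0 fell by edgeR's test (median 0.88), with 0 lower at an unadjusted p under 0.05 and 0 that fell by DESeq2 or limma-voom. The largest rise was that of Rpusd3, a pseudouridine synthase of the mitochondrial RNA, with 9.62, 17.7 and 13.7 CPM at day 7 and 1.40, 1.24 and 1.83 CPM at day 0 (log2 fold change 3.19, SE 0.29). Every day 7 library exceeded every day 0 library more than 5-fold. Mitochondrial translation factors and activators rose in 13 of 14 tested genes (median 1.05). Taco1, the activator of mt-Co1 translation, led them with a log2 fold change of 2.24 (SE 0.24). Slirp, the RNA-binding partner of Lrpprc, was the one that did not pass (-0.36, SE 0.16, adjusted p = 0.083), and it fell under total-count scaling (-0.57, adjusted p = 0.048).

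Counts of the ribosomal RNAs that these proteins bind also rose. The small-subunit RNA mt-Rnr1 had a log2 fold change of 2.32 (SE 0.38) and the large-subunit RNA mt-Rnr2 one of 2.09 (SE 0.43). Together they took 6.18%, 10.9% and 7.55% of all counts in the day 7 columns, against 2.06%, 2.16% and 2.30% in the day 0 replicates. Relative to the Mrp sum of the same library, they stood at 31.9, 79.5 and 55.4 at day 7 and at 21.5, 20.6 and 21.2 at day 0. The day 7 libraries thus differed more than 2-fold among themselves in this ratio, while the day 0 libraries were nearly equal. The labels name total RNA as the source of the libraries. How far any removal of ribosomal RNA during library preparation shaped these counts was not tested.

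Cytosolic ribosomal proteins, the counterpart genes of the other ribosome of the cell, went the other way. Of 76 genes 63 fell and 0 rose by edgeR's test, with a median log2 fold change of -0.89. None was higher at an unadjusted p under 0.05, and 0 rose by DESeq2 or limma-voom. Rps20 fell most, to 62.2, 62.5 and 58.7 CPM at day 7, against 241, 202 and 221 CPM at day 0 (-1.86, SE 0.12). Counts of 68 of these 76 genes were fractional in at least 4 libraries, and reads shared with the many processed copies of this family make these values uncertain. Within each library, the Mrp sum was 18.1%, 16.8% and 18.6% of the cytosolic ribosomal protein sum at day 7, against 5.29%, 5.48% and 5.71% at day 0. That is 3.25 times as much at day 7 in the ratio of means, a quantity that does not depend on how libraries were scaled.

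Nuclear genes for respiratory subunits, which are assembled with the products of the mitochondrial ribosome, rose in 76 of 78 tested cases, with a median of 1.43. Cox8b, the muscle and brown fat form of a cytochrome oxidase subunit, had no count at day 0 and 1.98 ± 0.641 CPM at day 7 (SD, n = 3). Against a floor of 3 counts over the day 0 libraries it was at least 26.1-fold higher, a bound that covers counting error only. The Mrp sum was 21.6%, 22.7% and 23.1% of the respiratory subunit sum at day 7, against 38.9%, 39.3% and 39.4% at day 0, so the groups did not overlap and the ratio of means was 0.572. Of the 13 respiratory subunits encoded in mitochondrial DNA 11 rose, with a median of 1.58 and the largest value for mt-Nd6 (3.21, SE 0.26), which lies on the opposite strand to the other genes of this list, so its value depends on the use of strand in counting. The large-subunit sum over the small-subunit sum was 1.78 ± 0.0571 at day 7 and 1.61 ± 0.0492 at day 0 (SD, n = 3 each). Mrps6 alone gave 60.2 of 598 CPM of the small-subunit sum at day 7 and 83.1 of 359 CPM at day 0. Without it, that ratio was 1.98 ± 0.0433 at day 7 and 2.09 ± 0.0510 at day 0, so its direction rested on this gene.

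**Figure D3:**
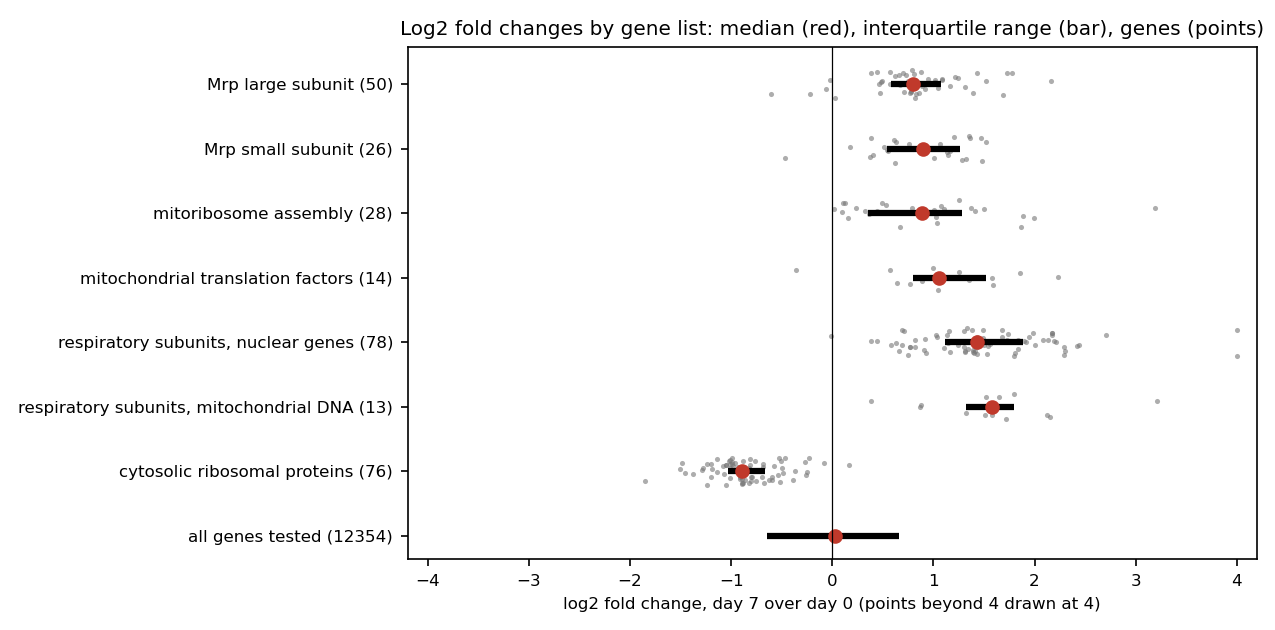
Log2 fold change, day 7 over day 0, by gene list, with each gene as a grey point, the median in red and the interquartile range as a bar (numbers of tested genes in brackets, all tested genes at the bottom without points). Both Mrp subunits centre near 0.8 to 0.9, respiratory subunits lie higher, and cytosolic ribosomal proteins lie on the other side of 0 at -0.89.

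**Figure D4:**
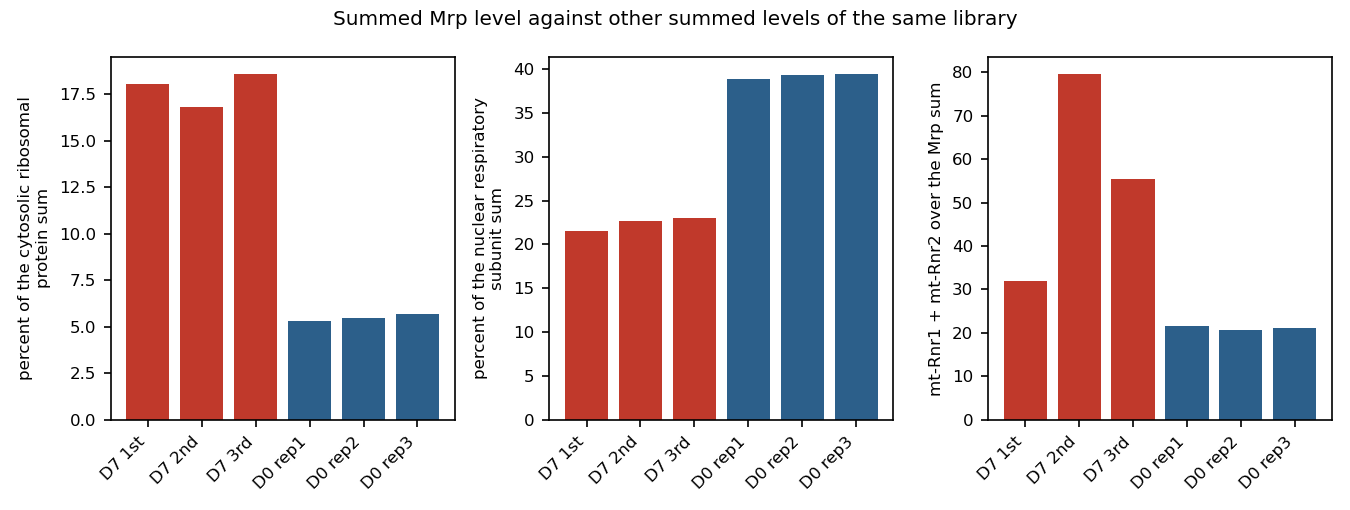
Summed Mrp level of each library as a percent of the cytosolic ribosomal protein sum (left) and of the nuclear respiratory subunit sum (middle), and the mitochondrial ribosomal RNA over the Mrp sum (right); red bars are the day 7 columns and blue bars the day 0 replicates. The first ratio is about 3 times as high at day 7, the second is lower at day 7, and the third spreads from 31.9 to 79.5 at day 7 with the day 0 bars near 21.

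Mrp genes lie on 17 chromosomes, with at most 10 on one of them, chromosome 11. In GENCODE M21, 26 of the 77 (33.8%) had a coding gene on the other strand whose start lay within 1000 bases upstream of their own start or 500 bases inside it. Of the other tested coding genes, 15.4% of 10860 had one. Of 23 tested neighbours that are not Mrp genes themselves, 7 rose, 7 fell and 9 did not pass, shares close to the background, with a median log2 fold change of 0.09. The members of the same 23 pairs rose in 19 cases, with a median of 0.82. Of the 19 members that rose, 6 had a neighbour that fell, 5 one that rose and 8 one that did not pass. Over all tested genes, 29.2% fell and 30.8% rose. The pairs that rose together were Mrpl37 with Cyb5rl, Mrps27 with Ptcd2, Mrpl41 with Pnpla7, Mrpl2 with Klc4 and Mrps18b with Ppp1r10. Mrpl57 rose by 0.73 (SE 0.16, adjusted p = 0.064 under total-count scaling) while Ska3, a kinetochore gene that starts 49 bases away, fell (-2.43, SE 0.44). Ska3 had few counts, 6, 8 and 2 in the day 7 columns and 29, 31 and 39 in the day 0 replicates. Mrpl51 rose by 1.09 (SE 0.12) while the condensin gene Ncapd2 fell (-0.84, SE 0.18). Mrpl30 rose by 0.86 (SE 0.19) and Mitd1, a gene of cytokinesis, fell (-1.44, SE 0.16). In the opposite case, Ndufs6, a complex I subunit gene, rose by 1.15 (SE 0.18) beside Mrpl36, which did not pass (0.38, SE 0.19).

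One divergent pair holds members on both sides. The RefSeq starts of Mrpl46 and Mrps11 on chromosome 7 lie 42 bases apart, and the printed windows share 141 bases. Mrpl46 rose by 1.52, while Mrps11 had 7.64, 5.08 and 7.32 CPM at day 7 and 4.82, 5.21 and 5.41 CPM at day 0, and its groups overlapped (log2 fold change 0.38, SE 0.20, adjusted p = 0.13). Of the 6 fits that left out 1 library, Mrps11 passed only in the one without the second day 7 column, with adjusted p from 0.025 to 0.35. Exons of the 2 genes overlap on opposite strands in GENCODE M21, and the use of strand in counting is not given in the sources used here, so reads of the overlapping exons cannot be told apart. The difference between the members of a pair was not tested.

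**Figure D5:**
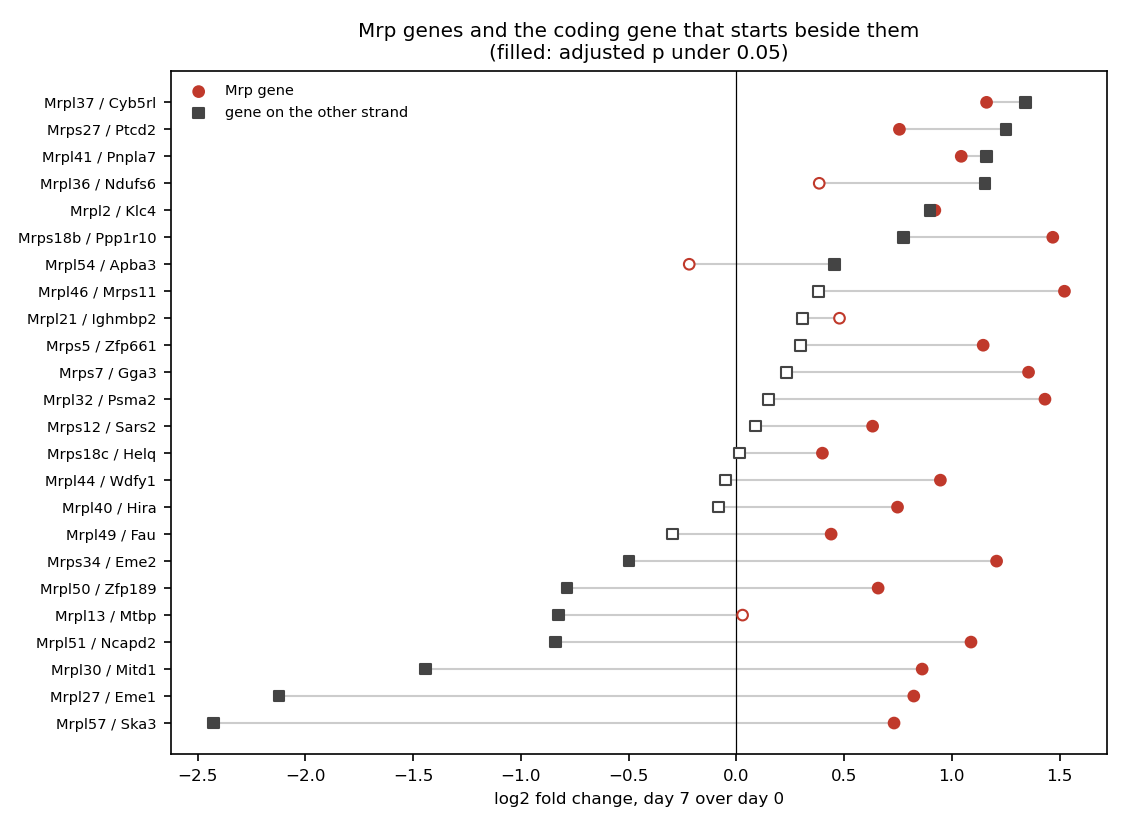
Log2 fold change, day 7 over day 0, of Mrp genes (red circles) and of the coding gene that starts beside them on the other strand (dark squares), with pairs sorted by the neighbour; filled symbols have an adjusted p under 0.05. Most circles lie between 0.4 and 1.5 whatever the neighbour did, with the squares running from 1.34 (Cyb5rl) to -2.43 (Ska3).

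RefSeq start regions of 300 bases were found for 68 of the 77 members. The 9 without one were Mrpl4, Mrpl13, Mrpl15, Mrpl19, Mrpl38, Mrpl54, Mrps28, Mrps34 and Mrps35. Of these, Mrpl15, Mrpl38 and Mrps35 ranked 2, 4 and 6 among the members by log2 fold change. Counting matches on either strand, the NRF1 motif was in 23.5% of them, against 16.2% of the start regions of other tested genes and 7.03% of all start regions in the table. The ETS motif was in 36.8% of the members' regions, against 20.9% of other tested genes and 9.93% of all. With the longer ETS motif CCGGAAGTG the shares were close, 5.88% of the members' regions and 5.26% of those of other tested genes. The YY1 motif was in 17.6%, against 5.44% of other tested genes and 3.19% of all. At least 1 of these 3 motifs was in 43 of the 68 regions (63.2%), against 36.5% of other tested genes. The ERR motif was in 5.88% of the members' regions and 3.57% of those of other tested genes, and the E-box CACGTG in 7.35% and 11.9%. The median log2 fold change of members with and without a motif was 0.84 and 0.76 for NRF1, 0.73 and 0.88 for ETS, and 0.76 and 0.80 for YY1, differences that were not tested. Other lists had shares as high or higher: the ETS motif was in 41.1% of cytosolic ribosomal protein regions, and the NRF1 motif in 31.3% and the ERR motif in 12.5% of respiratory subunit regions. The YY1 motif was in 8.93% of cytosolic ribosomal protein regions and 14.1% of respiratory subunit regions. These shares are descriptions of letters in a fixed window, and binding of the factors was not measured.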

How the data were processed

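Illumina stranded total RNA libraries were sequenced, per the labels' protocols. The authors deposited estimated counts per gene, not scaled between libraries. Salmon 1.9.0, STAR 2.7.10a, Trim Galore 0.6.7 and build GRCm38 are named per the submitters' processing notes, and neither their roles nor the annotation is stated. In the table, 10 numeric side columns were not used.

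Estimated counts were rounded, passed through filterByExpr (minimum 10 counts in a library, 15 in total), scaled by TMM and compared between days with edgeR 4.0.16 in R 4.3.3 (glmQLFit, glmQLFTest, day as factor), adjusting over 12354 genes with 0.05 as threshold. The standard error was derived from the log2 fold change and its F statistic. A count more than 0.01 from a whole number is called fractional. Scripts were tested on simulated data, where 62 of 100 2-fold and 96 of 100 4-fold changes were recovered, with 7 false calls. The simulation changed 200 genes and gave every gene the same spread beyond counting noise. In the data 3802 genes rose and 3611 fell, so the simulated shares need not hold for them. A gene that did not pass may still have changed. Replicates differed beyond counting noise. Lengths and positions come from GENCODE M21, start regions from RefSeq.

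Members, gene lists and the rule for named genes were chosen with earlier results of these data known. The rule names members of fixed roles, the 5 largest changes each way, the 3 highest and 3 lowest levels per length and the largest change of each other list. Other genes, such as Mrps35, the members that did not pass and the neighbours, were chosen after their values were seen. Alternatives were upper-quartile, RLE and total-count scaling, removal of mitochondrially encoded and the 10 most abundant rows, no filter, 10 CPM in 3 libraries, DESeq2 1.42.0, limma-voom (limma 3.58.1), glmTreat against 1.5-fold and each library left out.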

Additional observations from a re-analysis of the deposited data

How the results depend on the processing

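Depth limits genes with few counts. RLE scaling and removal of the most abundant rows each gave 67 Mrp genes that rose. Upper-quartile scaling gave 63, no filter 62, DESeq2 64 and limma-voom 66. All of these settings had 2 that fell. Over all genes, 3735 of 12354 rose with RLE scaling and 3761 of 12301 with those rows removed. Upper-quartile scaling gave 3519, DESeq2 3620 and limma-voom 3820 of 12354, and no filter 3933 of 20807. From 3534 (DESeq2) to 3848 (upper-quartile scaling) of all genes fell. None of the 67 members that rose and the 2 that fell changed sign under any alternative run. Of those not called, Mrpl13 turned to -0.027 with upper-quartile and -0.20 with total-count scaling and Mrps33 to -0.050 with total-count scaling. Without 1 day 7 library, Mrpl13 ran from -0.053 to 0.12, Mrpl23 from -0.32 to 0.16 (0.044 without the first column) and Mrpl33 from -0.18 to 0.028. Without 1 day 0 library, Mrpl13 ran from -0.0083 to 0.044 and Mrpl23 from -0.122 to 0.044. The median of all genes was -0.034 with upper-quartile and -0.21 with total-count scaling. Of the 67 genes that rose, 37 stayed called in every alternative other than glmTreat and in every fit without 1 library.

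Total-count scaling gave 38 Mrp genes that rose (23 in the large and 14 in the small subunit), a median of 0.56, 1 riser among the mitoribosomal proteins with other names, medians of 0.65 for assembly genes and 0.82 for translation factors, 2356 risers among all genes, and a log2 ratio of the summed level of 0.60, against 0.83 with TMM. The test against 1.5-fold (glmTreat) gave 33 Mrp genes that rose (19 and 13 by subunit) and 0 that fell, 1 riser with another name, and 2132 risers and 2240 fallers among all genes; fewer calls follow from its stricter hypothesis. With 10 CPM in 3 libraries, 55 of 61 Mrp genes rose and 1 fell, against 2678 and 2570 of all 8041 genes tested. There 8 assembly genes (median 0.50) and 8 translation factors rose, since fewer genes were tested. Leaving out each library gave 53 (without day 0 replicate 2) to 67 Mrp genes that rose and 1 to 2 that fell. Over all genes, 3118 of 12723 (without day 0 replicate 1) to 4185 of 12712 (without the third day 7 column) rose. From 2999 of 12522 (without day 0 replicate 2) to 4044 of 12712 (without the third day 7 column) fell. The same fits gave 2 to 5 risers with other names.

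Longer motifs were in 10.3% (NRF1), 5.88% (ETS), 11.8% (YY1), 0% (ERR) and 0% (E-box) of the members' start regions, against 4.4%, 5.26%, 3.77%, 0.284% and 0.579% of those of other tested genes. With the longest transcript as length, day 7 levels were 54.0 for Mrps6, 2.94 for Mrpl47 and 1.69 CPM per kb for Mrpl48. Leaving Mrps6 out of the summed level, an alternative added after seeing the data, gave a log2 ratio of 0.91. No paired analysis was possible because the headers of the day 7 columns all carry the same replicate number. Protein sequences were not analysed here.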
